A study of Mus musculus with 6 samples.

Results

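The type I interferon genes described here are 41 genes of mouse regulatory T cells: the 2 chains of the interferon receptor, transcription factors that carry its signal, sensors of foreign nucleic acid, and genes that the signal switches on. They were taken by name from the 24453 gene symbols of the deposited expression table, with the most abundant annotated transcript kept for each symbol. All 41 matched, and all 41 were among the 13621 genes with a mean level of at least 1 RPKM that were tested. RPKM here means reads per kilobase of exon and per 10000000 counted reads. The label of the set names STATs, but Stat2 is its single STAT member.

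RNA came from regulatory T cells (Treg cells, lymphocytes that restrain immune responses and express the transcription factor Foxp3) sorted as CD4+Foxp3+ cells from healthy female C57BL/6 mice. The series has 3 libraries of a control group, whose genotype label reads WT Tg (called WT here), and 3 of a group labelled miR-27 Tg, in which miR-27a is overexpressed in Treg cells only. The series title names the mice Foxp3cre het. Foxp3 lies on chromosome X, so in a female that is heterozygous for a Cre allele at Foxp3, X inactivation leaves some Treg cells without Cre. The sources used here do not give whether the sort selected Cre-bearing cells, whether the WT group also carries the Cre allele, the age of the mice, or whether each library came from its own mouse, so p-values measure the spread between libraries, which may be technical.

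Type I interferons are cytokines released when cells sense viral RNA or DNA. They bind a receptor made of Ifnar1 and Ifnar2, whose kinases Jak1 and Tyk2 phosphorylate STAT proteins, Stat2 among them. Stat2 and Irf9 are parts of a complex that binds the interferon-stimulated response element (ISRE) of target promoters. The induced genes include the sensors themselves, antiviral effectors and feedback inhibitors such as Usp18. In T cells the same genes are active at a low tonic level and rise further in infection and inflammation.

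The transgene's product is shown first, because the level of its hairpin, Mir27a, separates the groups. The values given below are of that hairpin, not of the mature strand. Promoter stretches with the ISRE, the element that many of these genes carry, follow. The mature strand of miR-27a, with its seed (bases 2 to 8) in capitals, is as follows.
mmu-miR-27a-3p: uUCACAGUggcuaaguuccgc
RefSeq promoters on GRCm38.p6, from 250 bases before to 50 bases after a start site, matched 31 of the 41 members by symbol, and the one nearest to the start of the kept transcript was used. Dhx58, Zbp1, Ifi204, Usp18, Parp9, Parp14, Mx1, Mx2, Rtp4 and Ifi27l2a were not matched. The core of the ISRE was searched as GAAANNGAAA on both strands. It was present in 14 of the 31 promoters (45.2%), against 3.44% of all 32851 promoters in that table. The stretches below run 5′ to 3′ on the strand of the gene, end before the start site, and carry every upstream match in capitals. They are shown for Stat2, which rose, for the 4 genes with several matches (Isg15, Ifit1, Ifit3 and Bst2), and for examples from the viperin, Schlafen and Trim30 groups.
Stat2 (chr10:128270248-128270315, plus strand): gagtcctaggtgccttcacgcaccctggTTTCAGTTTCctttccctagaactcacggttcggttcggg
Isg15 (chr4:156200845-156200926, minus strand): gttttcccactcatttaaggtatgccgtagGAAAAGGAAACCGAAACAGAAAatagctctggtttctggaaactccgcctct
Ifit1 (chr19:34640755-34640843, plus strand): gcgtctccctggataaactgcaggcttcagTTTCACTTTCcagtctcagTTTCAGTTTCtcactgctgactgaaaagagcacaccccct
Ifit3 (chr19:34583343-34583446, plus strand): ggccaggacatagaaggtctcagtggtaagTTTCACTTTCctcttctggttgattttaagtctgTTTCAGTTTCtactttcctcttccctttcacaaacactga
Bst2 (chr8:71537557-71537632, minus strand): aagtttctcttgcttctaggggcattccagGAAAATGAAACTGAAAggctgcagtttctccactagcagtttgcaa
Rsad2 (chr12:26456533-26456602, minus strand): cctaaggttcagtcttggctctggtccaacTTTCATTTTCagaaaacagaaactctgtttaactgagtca
Slfn5 (chr11:82951917-82951986, plus strand): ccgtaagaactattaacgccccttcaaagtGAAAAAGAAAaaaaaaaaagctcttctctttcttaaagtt
Trim30a (chr7:104465194-104465259, minus strand): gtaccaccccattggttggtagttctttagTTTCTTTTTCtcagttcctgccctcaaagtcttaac
Trim30d (chr7:104507851-104507920, minus strand): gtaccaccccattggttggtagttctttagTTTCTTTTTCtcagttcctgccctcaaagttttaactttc
The 3 matches of Isg15 overlap one another, as do the 2 of Bst2, so each run of capitals there is longer than 1 match. The start site of the promoter table lies 78 bases before that of the kept transcript for Stat2 and 35 bases from it for Bst2. The other members with a match were Ddx58, Ifih1, Ifi203, Eif2ak2 and Slfn8. TTCNNNGAA, the core of the gamma-activated site, was present in 8 of the 31 promoters (25.8%), against 8.30% of all promoters. In Bst2 it overlapped an ISRE match, and in Eif2ak2 the 2 motifs lay apart. A match is a description of letters in these windows, not of binding.

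Depth was 34400000 to 42100000 counted reads per library. Mir27a, the hairpin of the transgene, spanned 24.7 to 38.4 RPKM in WT against 7448 to 8919 in miR-27 Tg, so every library matched its label. Foxp3 spanned 662 to 830.3 RPKM in WT against 774 to 955 in miR-27 Tg, and Cd4 had 1864 to 2034 and 2117 to 2293. Of the 7 Treg markers tested, 3 had a log2 fold change above 0 (Foxp3, Cd4 and Il2ra) and 4 below. The markers that follow are named after their values were seen. Ctla4, an inhibitory receptor, had 3771, 3413 and 3125 RPKM in WT against 2107, 2322 and 2575 in miR-27 Tg, without overlap (log2 fold change -0.56, adjusted p = 0.0868 by limma). Ikzf2 had a log2 fold change of -0.51, Cd3e -0.20, Tnfrsf18 -0.19 and Il2ra 0.10. Of the 7 markers tested 0 passed by limma, and at an unadjusted p under 0.05, 0 were higher and 2 lower (Ctla4 and Ikzf2). Their summed level was 10004.5 to 10703 RPKM in WT against 8932 to 9434 in miR-27 Tg, without overlap. Ctla4 had the highest mean of these markers in WT (3436 RPKM), so it weighs most in that sum. The part of the summed level in the results below was not tested.

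Mean levels of the interferon genes lay above those of WT in miR-27 Tg for nearly every member, by small amounts in most. Of the 41 members, 40 had a log2 fold change above 0, against 47.1% of all genes tested. The median over the members was 0.44 on the log2(RPKM + 1) scale, and over all genes tested it was -0.01. The single member below 0 was Trim30d, at -0.02. Log2 fold changes ran up to 1.13, for Ifit1 and Ifit3, which corresponds to 2.19-fold for both.

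Of these differences, that of Stat2 alone passed the test for a single gene. By limma with Benjamini-Hochberg adjustment over all 13621 genes at a threshold of 0.05, 1 member rose (Stat2), 0 fell and 40 did not pass, where 0.374% of all genes tested rose and 0.653% fell. At an unadjusted p under 0.05, 27 of the 41 were higher and 0 lower, against 4.59% and 8.43% of all genes. For 23 of the 41 each miR-27 Tg library lay above each WT library, and for the other 18 the groups overlapped. All genes showed that separation for 6.84% upward and 11.6% downward, and 0 members showed it downward. These shares describe the list, and no test was made of the list as a whole. Because RNA was measured in bulk, more RNA per cell and more cells with such RNA cannot be told apart.

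**Figure D1:**
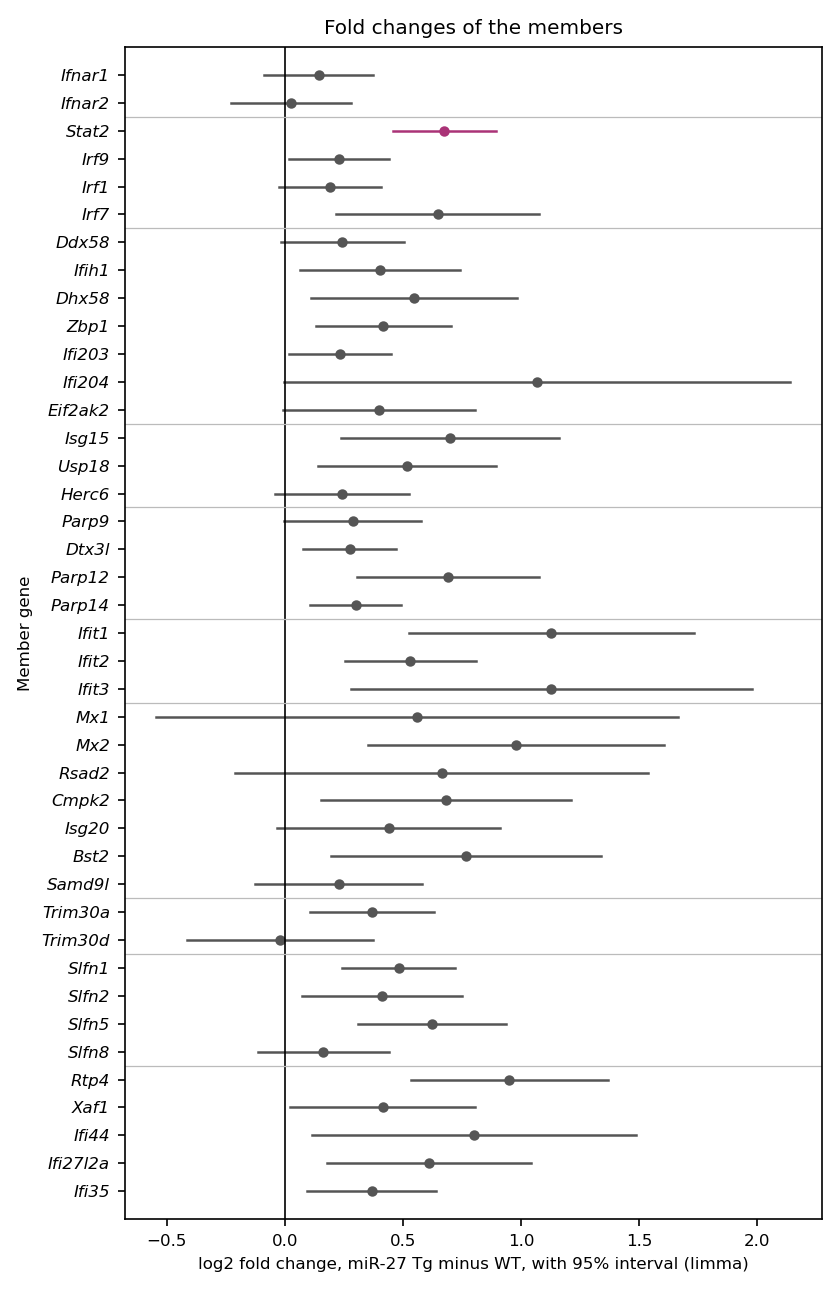
Log2 fold change of each of the 41 members (miR-27 Tg minus WT, log2(RPKM + 1) scale) with its 95% interval from limma, grouped by role with grey lines between groups. Stat2, in purple, is the member that passed the adjusted threshold, and 40 of the 41 points lie to the right of 0.

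The receptor chains did not differ detectably. Ifnar1, the chain that binds Tyk2, had 270.5, 316 and 281 RPKM in WT, always listed from replicate 1 to 3, against 306, 350.2 and 301 in miR-27 Tg. Its log2 fold change was 0.14, with a 95% interval of -0.09 to 0.37 and adjusted p = 0.629 by limma. Ifnar2, the chain that binds Jak1, had 253, 304 and 280.1 RPKM in WT against 254, 313 and 288 in miR-27 Tg. For it the log2 fold change was 0.03 (interval -0.23 to 0.28, adjusted p = 0.957 by limma). In both genes the groups overlapped, and annotated neighbours share 9.46% of the exonic bases of Ifnar2.

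Each of the 4 transcription factors was separated between the groups, all upward, against 6.84% of all genes. Stat2 (NM_019963, mm10 chromosome 10, 128270576 to 128292849), the partner of Irf9 in the complex that binds the ISRE, had 191, 202 and 206 RPKM in WT. In miR-27 Tg it had 296, 353 and 311. The log2 fold change of 0.68 had an SE of 0.09 and passed the threshold (adjusted p = 0.0258 by limma), so Stat2 rose, 1.60-fold. The WT libraries lay within 1.08-fold of one another, the tightest of any member, and the lowest miR-27 Tg library stood well above them. Leaving out any of the 6 libraries ended the call, with log2 fold changes of 0.60 to 0.73 and adjusted p of 0.0566 to 0.101, where each of these fits used 1 library fewer.

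Irf7, the factor that amplifies interferon production and is itself induced, had 263, 300.4 and 355 RPKM in WT against 376, 619.9 and 464 in miR-27 Tg. Its log2 fold change was 0.65 (SE 0.19, adjusted p = 0.182 by limma). The groups did not overlap, but the lowest miR-27 Tg library was close to the highest WT library. Irf9, which completes the ISRE-binding complex, had 499, 556 and 516 RPKM in WT against 561, 642 and 639, a log2 fold change of 0.23 (adjusted p = 0.340). Irf1, a factor induced by both types of interferon and abundant in these cells, had 1165, 1324 and 1177 RPKM in WT against 1373, 1330.2 and 1474 (0.19, adjusted p = 0.460). For Irf9 and Irf1 the separation was by narrow margins.

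**Figure D2:**
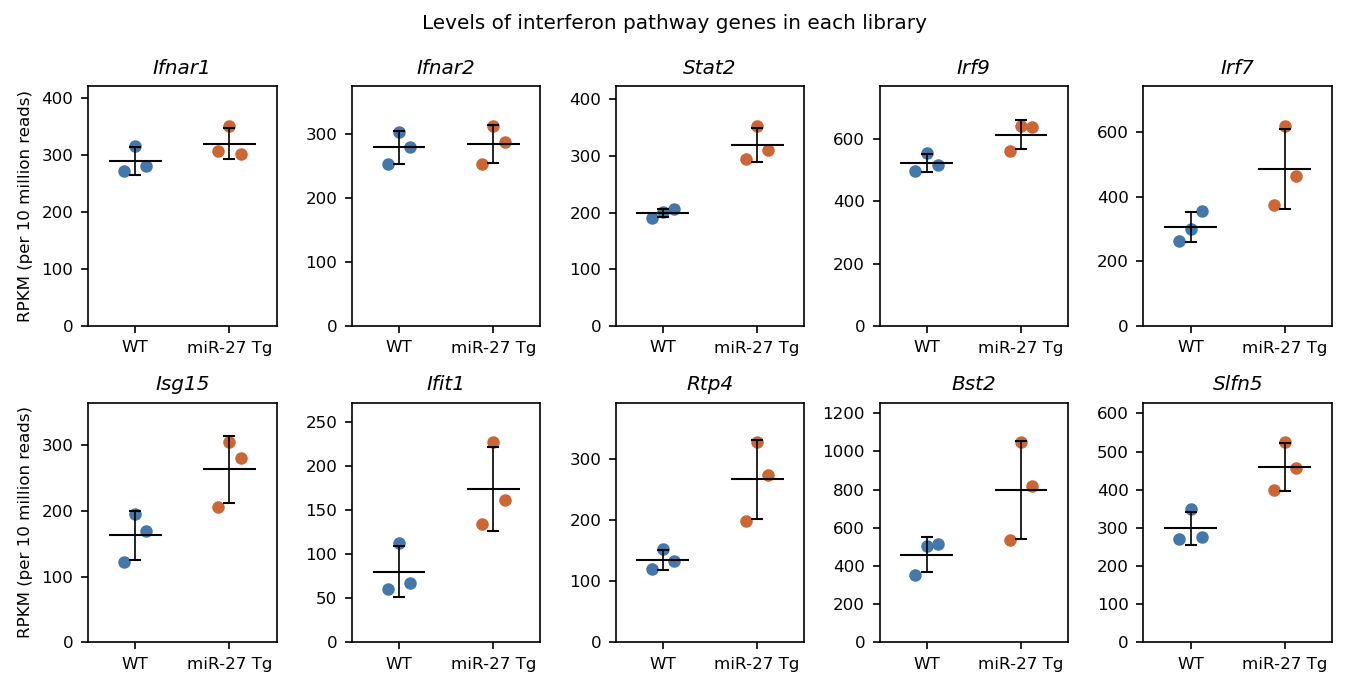
RPKM of 10 genes in each library, with WT replicates 1 to 3 in blue and miR-27 Tg replicates 1 to 3 in orange from left to right, the mean as a line and the SD as bars (n = 3). Stat2 is separated with little spread, Ifnar1 and Ifnar2 overlap between the groups, and miR-27 Tg replicate 2 is the highest point for all 10 genes shown.

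The 7 nucleic acid sensors had a median log2 fold change of 0.40. By limma 0 of them passed the adjusted threshold and 4 reached an unadjusted p under 0.05, all upward, against 4.59% of all genes. The cytosolic RNA helicase Ddx58 (RIG-I) had 206, 251 and 213 RPKM in WT against 238, 289 and 266 in miR-27 Tg. Ifih1 (MDA5), its relative for long double-stranded RNA, had 69.9, 79.6 and 64.9 against 84.5, 115.9 and 86.2. Dhx58 (LGP2), which tunes both, had 85.3, 128 and 96.8 against 125, 187 and 142. The log2 fold changes of the 3 helicases were 0.24, 0.40 and 0.55. Only Ifih1 had non-overlapping groups, and adjusted p by limma was 0.427, 0.291 and 0.264.

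Zbp1, a sensor of Z-form nucleic acid that can start necroptosis, had 463, 538 and 495 RPKM in WT against 565, 766 and 680.4 in miR-27 Tg, and its groups did not overlap (log2 fold change 0.42). The kinase Eif2ak2 (PKR), which stops translation on double-stranded RNA, had 87.4, 119.6 and 81.9 against 105, 149 and 127. Its log2 fold change was 0.40, with the WT replicate 2 library inside the range of miR-27 Tg. Ifi203 and Ifi204 belong to a family of DNA-binding proteins clustered on chromosome 1 and differed widely in abundance. Ifi203 had 530, 534 and 456 RPKM in WT against 569, 618 and 596 (0.23), while Ifi204 was the rarest member, with 0.729, 1.45 and 1.98 RPKM in WT against 1.38, 7.37 and 4.83 in miR-27 Tg. The latter values correspond to 7, 13 and 17 reads in WT against 12, 58 and 38 in miR-27 Tg, so counting error is large, and adjusted p for a log2 fold change of 1.07 was 0.386 by limma. With 1 library left out that fold change was 0.68 to 1.59.

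The ISG15 system attaches and removes a ubiquitin-like tag. Isg15, the tag, had 123, 196 and 170.1 RPKM in WT against 206, 304 and 280.3 in miR-27 Tg, with a log2 fold change of 0.70 (SE 0.20, adjusted p = 0.177 by limma). Usp18, the protease that removes it and also restrains the receptor, had 189.6, 256 and 211 against 255, 377 and 313 (0.52, adjusted p = 0.224). Isg15 was separated by a narrow margin, and for Usp18 miR-27 Tg replicate 1 lay just under WT replicate 2. Herc6, the mouse ligase for the tag, had 115, 112 and 96.2 RPKM in WT against 114, 146 and 124 (0.24, adjusted p = 0.468), with overlapping groups. A predicted gene shares 13.7% of the exonic bases of Herc6.

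Of the 4 genes of ADP-ribosylation, a protein modification that several viruses counter, 3 had non-overlapping groups, all upward, against 6.84% of all genes. Parp12 had 33.6, 34.6 and 29.8 RPKM in WT against 45.7, 68.2 and 48.5 in miR-27 Tg (log2 fold change 0.69, SE 0.17, adjusted p = 0.122 by limma). Parp14, a large enzyme that also takes part in cytokine signalling, had 382, 339 and 339 against 432, 442 and 430 (0.30, adjusted p = 0.165). Its miR-27 Tg libraries lay within 1.03-fold of one another, the tightest of any member in that group. Parp9 and Dtx3l, whose proteins act as a pair, overlap head to head on chromosome 16. Dtx3l had 277, 281 and 258 RPKM in WT against 313, 351 and 325 (0.27), and Parp9 had 233, 276 and 232 against 256, 332 and 319 (0.29). Parp9 shares 9.40% of its exonic bases with Dtx3l, and reads were counted on both strands, so a small part of their values cannot be told apart.

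The IFIT genes encode proteins that bind foreign RNA and block its translation, and they lie side by side on chromosome 19. On the log2(RPKM + 1) scale Ifit1 and Ifit3 had the highest fold changes of the set, while with a pseudocount of 0.1 that of the rare Ifi204 was higher (1.45, against 1.14 for both). Ifit1 (NM_008331, mm10 chromosome 19, 34640889 to 34650009) had 60.3, 113 and 67.7 RPKM in WT against 135, 227 and 161 in miR-27 Tg. Its log2 fold change was 1.13 (SE 0.26, adjusted p = 0.107 by limma). WT replicate 2 was the highest of its group and miR-27 Tg replicate 2 the highest of the other. Ifit3 followed the same order of libraries, with 33.4, 73.3 and 45.4 RPKM in WT against 72.0, 179 and 93.1 (1.13, SE 0.37, adjusted p = 0.235), and its groups overlapped because WT replicate 2 lay just above miR-27 Tg replicate 1. Ifit2 had 158, 201 and 152 RPKM in WT against 229.5, 255 and 250.3, a smaller and tighter difference (0.53, SE 0.12, adjusted p = 0.1004). Ifit3 has a near-identical neighbour, Ifit3b, so its reads may be split between the 2 genes.

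Restriction factors act on the virus itself. Bst2 (tetherin), which holds budding virions at the cell surface, had 352, 507 and 516 RPKM in WT against 534, 1046 and 816 in miR-27 Tg (log2 fold change 0.77, SE 0.25, adjusted p = 0.231 by limma). Mx2, a dynamin-like GTPase, had 16.4, 30.4 and 18.7 against 34.7, 59.4 and 37.3 (0.98, SE 0.27, adjusted p = 0.165). In both the groups were separate, by less than the spread within miR-27 Tg. Mx1, the neighbour of Mx2 and a gene known to be defective in C57BL/6 mice, had 28.4, 87.0 and 35.3 RPKM in WT against 47.9, 125 and 47.9. For Mx1 WT replicate 2 exceeded miR-27 Tg replicates 1 and 3, and the 95% interval of its log2 fold change of 0.56 ran from -0.54 to 1.67 (adjusted p = 0.707). It was 0.11 without miR-27 Tg replicate 2 and 1.04 without WT replicate 2.

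Rsad2 (viperin), a radical enzyme that makes a chain-terminating nucleotide, and Cmpk2, the nucleotide kinase that feeds it, lie 12.8 kb apart on chromosome 12. Cmpk2 had 26.2, 39.9 and 30.4 RPKM in WT against 41.6, 71.0 and 45.8 in miR-27 Tg, separate by a narrow margin (0.68, adjusted p = 0.248 by limma). Rsad2 had 11.5, 27.5 and 17.4 against 25.7, 47.5 and 19.1, with overlapping groups (0.66, adjusted p = 0.546). Its log2 fold change was 0.31 without miR-27 Tg replicate 2 and 0.37 without WT replicate 1. Despite like fold changes, Rsad2 spread 2.40-fold within WT and Cmpk2 1.52-fold. Isg20, a ribonuclease, had 159.6, 231 and 183 RPKM in WT against 191, 319 and 278 (0.44), and Samd9l, a translational inhibitor, had 593, 805 and 588 against 651, 832 and 833 (0.23). Neither was separated between the groups, with adjusted p of 0.427 and 0.616.

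Trim30a and Trim30d are neighbours on chromosome 7 of a family that dampens innate signalling. Trim30a had 388, 409.6 and 351 RPKM in WT against 431, 553 and 505 in miR-27 Tg, without overlap (log2 fold change 0.37, SE 0.11, adjusted p = 0.212 by limma). Trim30d had 96.1, 114 and 88.2 against 77.8, 120.6 and 98.3, with a log2 fold change of -0.02 (95% interval -0.41 to 0.37, adjusted p = 0.979). Their printed promoters carry the ISRE match within the same flanking letters. The difference between the 2 genes was not tested. The sources used here do not give how reads with several possible positions were handled, and members of this family are alike in sequence.

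Schlafen genes, which restrain growth and translation in lymphocytes, lie together on chromosome 11 and were among the most abundant members. Slfn5 had 271, 349 and 276 RPKM in WT against 400.1, 524 and 456 in miR-27 Tg (log2 fold change 0.62, SE 0.14, adjusted p = 0.0917 by limma). Slfn1 had 851, 916 and 931 against 1166, 1195 and 1424 (0.48, SE 0.10, adjusted p = 0.0886). Both were separated clearly, and they were the members nearest to the threshold after Stat2 and Rtp4. Slfn2, which keeps T cells quiescent, had 1435, 1659 and 1626 RPKM in WT against 1934, 1813 and 2595 (0.41, adjusted p = 0.276). Slfn8 overlapped between the groups, with 333, 412 and 327 against 365, 444 and 388 (0.16, adjusted p = 0.645). An antisense transcript shares 8.84% of the exonic bases of Slfn5.

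Of the other 5 induced genes, Rtp4 came closest to the threshold. Rtp4 (NM_023386, mm10 chromosome 16, 23609919 to 23614222), a chaperone of G protein-coupled receptors that also restrains interferon signalling, had 120.2, 153 and 133 RPKM in WT against 199, 327 and 274 in miR-27 Tg. Its log2 fold change was 0.95 (SE 0.18, adjusted p = 0.0602 by limma). The predicted gene Gm45338 overlaps 13.9% of its exonic bases. Without miR-27 Tg replicate 1 it passed (log2 fold change 1.15, adjusted p = 0.0404), and in that fit Stat2 did not. Ifi27l2a, the most abundant member, had 1723, 2271 and 2265 RPKM in WT against 2409, 3674 and 3555 (0.61, adjusted p = 0.212).

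Ifi35 had 282, 333 and 338 RPKM in WT against 356, 428 and 449 in miR-27 Tg, without overlap (0.37, adjusted p = 0.230 by limma). The predicted gene Gm11626 overlaps 16.8% of its exonic bases. Xaf1, a promoter of apoptosis, had 79.0, 105 and 89.5 RPKM in WT against 95.9, 146 and 126 (0.41, adjusted p = 0.351). Ifi44 was rare, with 9.85, 16.5 and 10.2 RPKM in WT against 14.7, 31.6 and 20.9 (0.80, SE 0.30, adjusted p = 0.300). For Xaf1 and Ifi44, WT replicate 2 lay above miR-27 Tg replicate 1.

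Abundance per kilobase varied widely among the members. Averaged over all 6 libraries, Ifi27l2a had 2649.5 RPKM, Slfn2 1844, Irf1 1307 and Slfn1 1080.4. At the other end Ifi44 had 17.3 and Ifi204 2.96. Mx1, Rsad2, Ifit3 and Ifi204 spread most within a group between the lowest and the highest library. Their spread was 2.196-fold to 3.06-fold in WT and 2.48-fold to 5.34-fold in miR-27 Tg.

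Libraries of one group differed in the members as a whole. The mean log2 level of the 41 was 7.21, 7.60 and 7.33 across the WT libraries and 7.62, 8.14 and 7.87 across those of miR-27 Tg, in replicate order. WT replicate 2 was the highest of its group for 33 members and miR-27 Tg replicate 2 for 36, and these 36 were also the highest of all 6. WT replicate 2 and miR-27 Tg replicate 1 had nearly the same mean. Set side by side as single libraries, miR-27 Tg replicate 1 was higher than WT replicate 2 for 24 of the 41, with a median difference of 0.06, where 36.7% of all genes were higher with a median of -0.14. Against WT replicate 1 it was higher for 39 of the 41, with a median difference of 0.42, where 47.1% of all genes were higher with a median of -0.02. Without WT replicate 2 the median log2 fold change of the members was 0.56, and without miR-27 Tg replicate 2 it was 0.32. At an unadjusted p under 0.05, 36 and 17 members were then higher, against 4.13% and 3.24% of all genes.

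**Figure D3:**
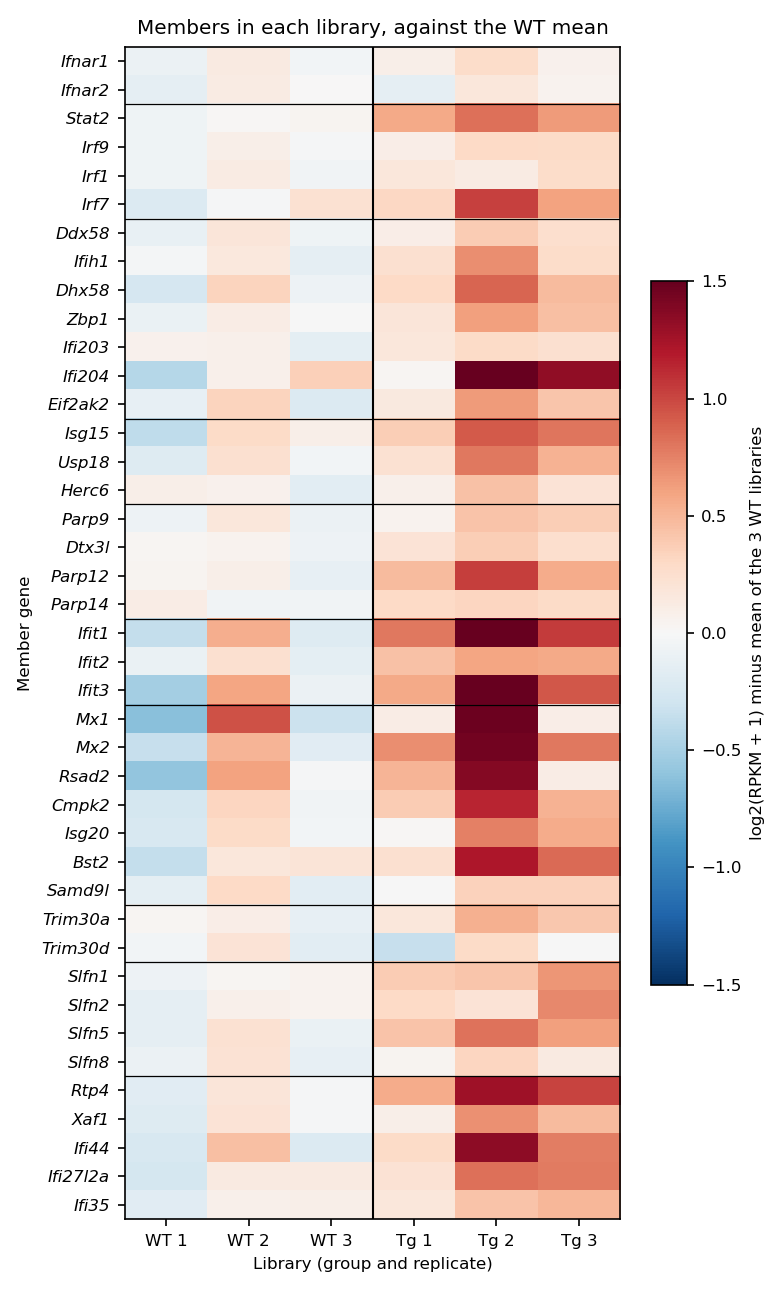
Each of the 41 members (rows, grouped by role) in each library (columns), as log2(RPKM + 1) minus the mean of the 3 WT libraries, with the colours ending at -1.5 and 1.5. The miR-27 Tg columns are red for most rows and darkest in replicate 2, and among WT replicate 2 is the reddest.

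Markers of other cells that the sort is meant to leave out also differed between these libraries. Plasmacytoid dendritic cells are the main producers of type I interferon and express Bst2 and Irf7 strongly themselves. Siglech, their defining surface lectin, had 14.4, 64.4 and 119 RPKM in WT against 27.4, 330.5 and 153 in miR-27 Tg. Of the 10 markers of these cells, 8 had a log2 fold change above 0, against 47.1% of all genes, and the median over the 10 was 0.96. The other 2 were Ccr9 (-0.19) and Pacsin1 (-0.13). These had the highest means of the 10 in WT, 93.0 and 180 RPKM, so they weigh much in the summed level. The groups overlapped for all 10, and limma gave 0 of them at adjusted and 0 at unadjusted p under 0.05. The summed level of the 10 was 352 to 699 RPKM in WT against 354 to 1364 in miR-27 Tg. Of the 10, 0 were at 0 in all libraries. Myeloid markers (19 genes) summed to 449 to 860 RPKM in WT against 599 to 2097 in miR-27 Tg. Of the 17 tested, 16 had a log2 fold change above 0, against 47.1% of all genes, and 1 below (Cybb, -0.22). Their median was 1.16, where 40 of the 41 members were above 0 with a median of 0.44. At an unadjusted p under 0.05, 10 of the 17 were higher and 0 lower, against 4.59% and 8.43% of all genes. After adjustment 1 rose, Itgam, an integrin chain of myeloid cells, with 4.40, 3.94 and 4.91 RPKM in WT against 16.0, 17.1 and 16.2 in miR-27 Tg (adjusted p = 0.0118 by limma). That call ended without WT replicate 1, WT replicate 3 or miR-27 Tg replicate 3, with adjusted p of 0.0268 to 0.0703 over the 6 fits with 1 library left out. No myeloid marker was at 0 in all libraries, and Cd14 had at most 1.23 RPKM.

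The order of libraries was partly shared. In miR-27 Tg both marker lists and the members ran from replicate 1, lowest, through 3 to 2. In WT the mean log2 level of the plasmacytoid markers was 3.98, 5.003 and 5.73 in replicate order, so replicate 3 was highest there, while the members were highest in replicate 2. miR-27 Tg replicate 1 had 4.41 for the plasmacytoid and 4.003 for the myeloid markers, against 5.73 and 3.99 in WT replicate 3. Between these 2 libraries 38 of the 41 members were higher in miR-27 Tg, with a median difference of 0.27, where 39.2% of all genes were higher and their median difference was -0.07. WT replicate 2 had 5.003 and 3.26 for the 2 lists. Against it 24 of the 41 were higher in miR-27 Tg replicate 1, with a median difference of 0.06, and 36.7% of all genes were. WT replicate 1 had 3.98 and 3.42. Against it 39 of the 41 were higher, with a median difference of 0.42, and 47.1% of all genes were. Each of these is 1 library against 1, with no replicate. The part of other cells in the group difference was not tested.

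Other marker lists gave no call upward. Of the 11 markers of CD8 T and NK cells tested, 2 fell (Nkg7 and Xcl1), against 0.653% of all genes. At an unadjusted p under 0.05 by limma, 2 were higher (Cd8b1 and Klrd1) and 4 lower, against 4.59% and 8.43% of all genes. The markers named here were named after their values were seen. Summed B cell markers had 182 to 213 RPKM in WT against 143 to 269 in miR-27 Tg over 14 genes. Markers of CD8 T and NK cells had 325 to 380 and 245 to 396 over 12 genes, and erythroid markers 21.2 to 107 and 12.9 to 73.0 over 9.

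**Figure D4:**
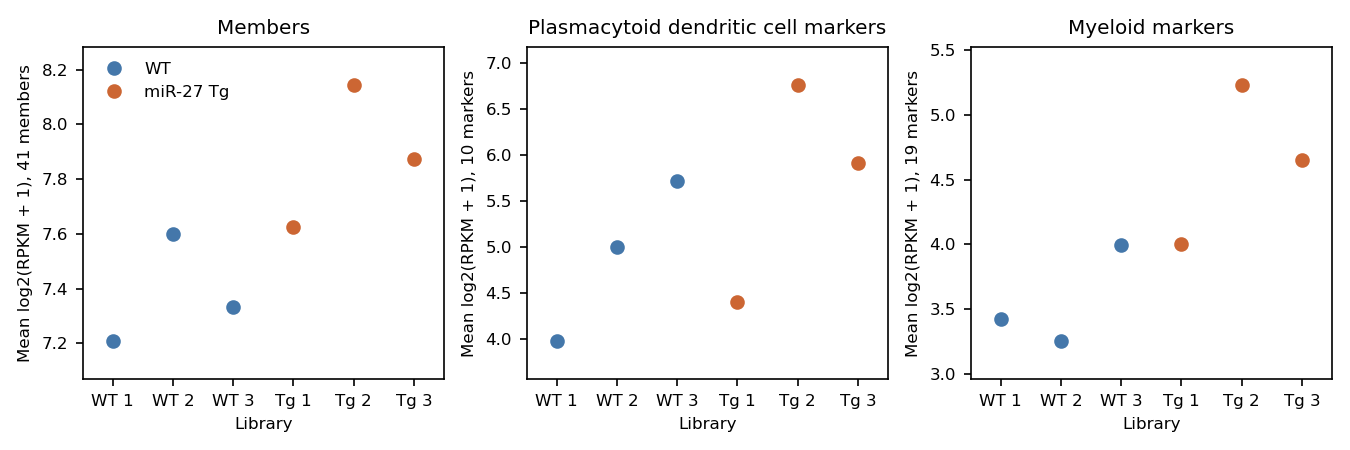
Mean log2(RPKM + 1) in each library of the 41 members, of 10 markers of plasmacytoid dendritic cells and of 19 myeloid markers, with WT in blue and miR-27 Tg in orange. All 3 are highest in miR-27 Tg replicate 2, while among WT the members peak in replicate 2 and both marker lists in replicate 3.

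Other genes of interferon signalling and related pathways gave no call. A list of 44 such genes had 35 tested, of which 0 rose and 0 fell by limma. It holds interferons, kinases, STATs, further IRF genes, Toll-like receptors, sensors' adaptors and inhibitors. Receptor genes of other cytokines (Ifngr1, Ifngr2, Il10rb and Ifnlr1) are also on it, so it is not limited to type I signalling. At an unadjusted p under 0.05, 4 of the 35 were higher and 1 lower, against 4.59% and 8.43% of all genes. Their median log2 fold change was 0.03. The receptor kinase Jak1 had 1353, 1313 and 1337 RPKM in WT against 1439, 1294 and 1313, and Tyk2 had 220.1, 212 and 221 against 206, 212 and 202 (adjusted p = 0.972 and 0.762).

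Among the same 44 genes, Tlr7, an endosomal sensor of single-stranded RNA, had 64.2, 76.8 and 71.2 RPKM in WT against 80.6, 126 and 109 in miR-27 Tg (log2 fold change 0.55, adjusted p = 0.2102 by limma). Socs1, a feedback inhibitor of JAK kinases, had 242, 195 and 283 against 303, 288 and 346 (0.39, adjusted p = 0.296). Trim25, a ubiquitin ligase that activates RIG-I, had 159.8, 138 and 170.3 against 202, 207 and 180.2 (0.33, adjusted p = 0.234). Each of these 3 was separated between the groups, by a narrow margin. So was Ifngr2, the other gene higher at an unadjusted p under 0.05 by limma. It had 191, 194 and 197 RPKM in WT against 238, 228 and 241 in miR-27 Tg (0.28, adjusted p = 0.164). Rnf135, another ligase of RIG-I, was separated downward by a narrow margin. It had 38.6, 41.3 and 32.4 RPKM in WT against 23.1, 31.5 and 30.6 in miR-27 Tg (-0.39, adjusted p = 0.365 by limma). Of the 35 tested, 5 were separated upward, Ticam1 being the remaining one, and 1 downward. Over all genes these shares were 6.84% and 11.6%.

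Transcripts of the interferons among these 44 genes were almost undetected, and other interferon genes were not looked up. Ifnb1, Ifna1, Ifna2, Ifna4, Ifna5 and Ifne were listed at 0 in all 6 libraries. Ifnk had 4, 1 and 2 reads in WT against 2, 0 and 5 in miR-27 Tg. Ifnlr1, the receptor chain of type III interferons, had at most 2 reads per library.

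A further list of 60 interferon-induced genes outside the set had 57 tested, and 4 rose, 0 fell and 53 did not pass by limma. Of all genes 0.374% rose and 0.653% fell. The median log2 fold change was 0.20, and 49 of the 57 were above 0, against 47.1% of all genes. At an unadjusted p under 0.05, 21 were higher and 0 lower, against 4.59% and 8.43% of all genes. Groups of 17 did not overlap, all upward, against 6.84% of all genes. Oas2, which makes the messenger that activates RNase L, had 48.6, 44.4 and 39.5 RPKM in WT against 180.5, 215 and 184 in miR-27 Tg, and rose by 2.11 (adjusted p = 0.000683). Oasl2 had 32.8, 44.7 and 39.0 against 71.9, 126 and 85.4 and rose by 1.23 (adjusted p = 0.0453). Oas3 had 54.5, 53.3 and 49.0 against 105.9, 129.7 and 79.4 and rose by 0.97 (adjusted p = 0.0491). Ifitm3, a membrane protein that blocks viral entry, had 14.8, 16.6 and 30.1 against 55.0, 86.6 and 70.8 and rose by 1.78 (adjusted p = 0.0326). The calls of Oasl2, Oas3 and Ifitm3 ended when any 1 library was left out, and that of Oas2 held in all 6 fits (adjusted p of at most 0.0160).

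**Figure D5:**
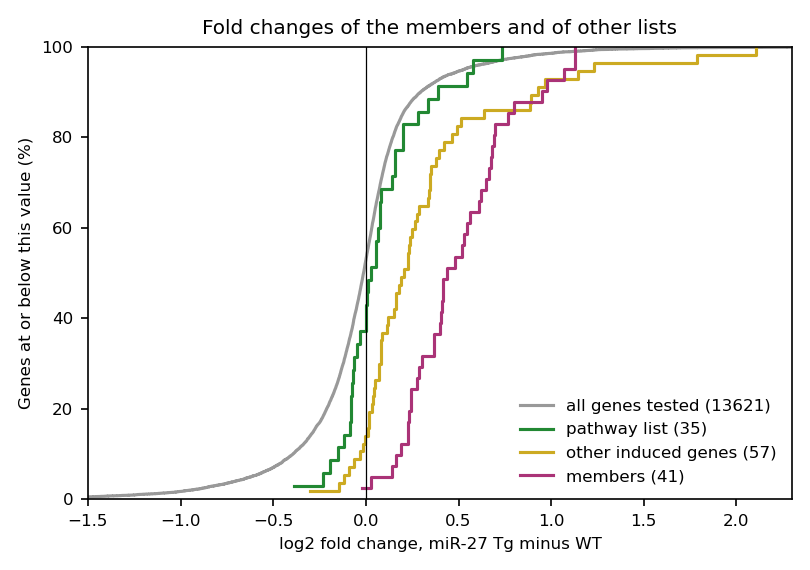
Cumulative share of genes (%) at or below each log2 fold change (miR-27 Tg minus WT) for the 41 members, 57 other induced genes, 35 pathway genes and all 13621 genes tested. The members lie furthest right with a median of 0.44, the other induced genes follow at 0.20, and the pathway genes at 0.03 lie near all genes at -0.01.

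Sequence features outside the readout were set beside these values. Promoters with an ISRE match belonged to 14 members with a median log2 fold change of 0.51 (from -0.02 to 1.13), and those without a match to 17 members with 0.41 (from 0.03 to 0.80). The ranges overlapped over most of their width. The match to the seed of miR-27a (ACTGTGA on the transcript's strand) was searched in the longest annotated 3′ UTR of each gene (GENCODE M21, GRCm38, protein-coding transcripts of the basic set). It was present in 7 of 41 members (17.1%) and in 16.7% of 11807 genes tested that have a 3′ UTR, with median lengths of 999 and 1094 bases. The 7 were Ifnar1, Irf9, Ifih1, Parp12, Rsad2, Ifit1 and Ifit3, all with log2 fold changes above 0, as for 40 of all 41 members. Stat2 had none. The sites of Ifit1, Ifit3 and the receptor chain Ifnar1 are shown as examples, with the match in capitals.
Ifit1 (chr19:34649801-34649829, plus strand): tgacacagtcaACTGTGAgtgcttccatc
Ifit3 (chr19:34588449-34588477, plus strand): ctcagctctgtACTGTGAgacagatgtgc
Ifnar1 (chr16:91506824-91506852, plus strand): atctctcaacaACTGTGAcacaggtcttc
A match of this kind does not show that the transcript is bound.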

How the data were processed

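The members and the gene lists were chosen with earlier results of these data known. The authors deposited 1 table of RPKM values for 6 libraries. Per the file headers, HOMER counted exonic reads regardless of strand for 34711 RefSeq transcripts (mm10) and scaled each library to 10000000 reads. STAR 2.2.0c and HOMER are named per the submitters' processing notes. What 1 read is worth was recovered from low values, 100% of which then came out whole (tolerance 0.1 read), and this gave depth and read numbers. No count model was used.

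For each symbol the transcript with the highest mean RPKM was kept. The test, for genes whose mean RPKM reached 1, was limma 3.58.1 (R 4.3.3) on log2(RPKM + 1) (intensity trend, two-sided, 3 against 3 libraries, Benjamini-Hochberg over 13621 genes, threshold 0.05). The model was also run on simulated data with noise drawn independently for each gene. Library differences shared by many genes, as among the members, were not simulated. Fold changes on this scale understate those of rare genes. Values in every library are given for members past the threshold, with an unadjusted p under 0.05, or with the highest or lowest fold of their role, and for some others chosen after their values were seen. Shared exonic bases come from GENCODE M21 (GRCm38). Rnf213 of the other induced genes and Trac of the Treg markers matched no symbol. Alternatives were the pseudocount, the filter, quantile normalization, the transcript kept, array weights, the trend, a replicate block and each library left out. The values of 1 gene of the pathway list are not reported here.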

Additional observations from a re-analysis of the deposited data

How the results depend on the processing

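The median log2 fold change of the members stayed above 0 in each setting (0.32 to 0.58), which is also the range when 1 library was left out (0.32 without miR-27 Tg replicate 2, 0.58 without miR-27 Tg replicate 1). The count of members that rose (1) was less stable. It was 2 with quantile normalization (Slfn1 and Stat2), 5 with array weights (Ifit1, Ifit2, Rtp4, Slfn5 and Stat2), 0 without the filter, 0 without the intensity trend, and 0 to 1 with 1 library left out. At an unadjusted p under 0.05 limma gave 18 higher members without the filter (3.26% of all genes), 24 without the trend (4.52%), 31 with quantile normalization (5.84%), 34 with a replicate block (6.18%), 39 with array weights (5.66%) and 17 to 36 with 1 library left out (3.24% to 5.37%), against 27 and 4.59%. With a replicate block 12 rose (Bst2, Cmpk2, Dhx58, Ifi27l2a, Ifit1, Ifit3, Isg15, Mx2, Rtp4, Slfn5, Stat2 and Usp18), and over all genes 91 rose and 185 fell, against 51 and 89. Those counts were 81 and 144 with array weights, 22 and 14 without the filter, and 3 to 14 and 1 to 44 with 1 library left out. Same-numbered libraries had correlations of deviations across genes of 0.368, 0.0971 and 0.0368. WT replicate 2 correlated better with miR-27 Tg replicate 3 (0.154), so the numbers were not taken to pair the samples. The 0.368 was the highest of any WT and miR-27 Tg library. In addition, replicate 1 was the lowest of its group for 28 members in WT and 35 in miR-27 Tg. These values do not settle whether the numbers pair the samples. Other induced genes that rose (4) numbered 7 with array weights, 7 with the block, 1 without the filter, 1 without the trend and 1 with any library left out. With 1 library left out the log2 fold changes of Ifih1, Herc6, Cmpk2, Isg20, Samd9l, Slfn2, Slfn8, Ifi44 and Ifnar1 also moved by over 1.5 times without a change of direction. Directions near 0 changed for Ifnar2 (-0.0226 with the longest transcript, -0.0425 to 0.108 with 1 library left out), Trim30d (0.15 with array weights, -0.17 to 0.14) and Jak1 (-0.0101 with array weights, -0.0340 to 0.0427). The causes were not tested. Counts of pathway genes were 0 in each direction throughout.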
